A study of Homo sapiens with 8 samples.

Results

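Maps of where the polypyrimidine tract binding protein (PTB) touches RNA were compared: the peak list of GoldCLIP with UVC crosslinking and a peak list that the submitters re-derived from an earlier iCLIP study. All 118434 peaks of the UVC list and all 58213 peaks of the iCLIP list were taken, which is 176647 of the 266317 peaks in the 5 lists of the series. The UVC group is 2 samples of 293T cells, a human embryonic kidney line, that carry a Halo-PTB transgene and were grown in puromycin. Both samples are merged in 1 list. Halo is a protein tag that bonds covalently to beads, so the captured protein is the tagged transgene product; its promoter and the number of clones are not given in the labels. The iCLIP list covers all samples of the earlier study, whose cells are not named in the series text; its peaks were made by the same methods as the GoldCLIP peaks, per that text. GoldCLIP libraries followed the iCLIP construction and were sequenced on one of 2 Illumina platforms, without a label saying which. The control groups used beside them, with 2 samples each, are Halo-PTB cells without UV and Halo-YFP cells (yellow fluorescent protein) with UVC; a further group of 2 is Halo-PTB with UVA. The labels give no UV dose and name no photoreactive nucleoside. Each group has 1 merged list, so no spread between replicates can be given, there is no test between lists, and read depth is unknown.

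PTB is an RNA-binding protein with several RNA recognition motifs that prefers pyrimidine-rich stretches rich in CU and UCUU. It is best known for repressing alternative exons from neighbouring introns, and it also acts in 3′ end processing, RNA stability and translation. In CLIP, ultraviolet light links protein to RNA at points of direct contact, and iCLIP reads the position where reverse transcription stops at the linked residue. GoldCLIP leaves out the gel step that iCLIP uses to select protein-RNA complexes by size. All positions below are in hg19. No gene annotation or genome sequence of that build was used here, so regions are named by position and strand, and the motif content of the sites was not analysed here.

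The lists were first set side by side as sites. Peaks within 20 nt of each other on one strand were merged, which gave 80531 UVC sites and 52446 iCLIP sites. Of the UVC sites, 5035 (6.25%, exact 95% interval 6.09 to 6.42) overlapped an iCLIP site by at least 1 nt on the same strand. Of the iCLIP sites, 4945 (9.43%, interval 9.18 to 9.68) overlapped a UVC site. On the opposite strand the overlap was nearly nil: 6 UVC sites met an iCLIP site there (0.0075%, interval 0.0027 to 0.016). The same-strand count was 839 times the opposite-strand count. Shared binding positions and shared transcripts cannot be told apart by this ratio. Counted on peaks, 7 UVC peaks met an iCLIP peak on the opposite strand, against 6454 on the same strand. All intervals of shares here cover counting error only and treat sites as independent.

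Many more sites were near each other than overlapped. Within 1000 nt of a UVC site on the same strand lay an iCLIP site for 23.2% of UVC sites, and within 10000 nt for 59.3%; on the opposite strand the shares were 0.283% and 4.93%. From the iCLIP side, 41.4% of sites had a UVC site within 1000 nt and 81.8% within 10000 nt. A further measure was taken from the midpoints of all pairs of UVC and iCLIP sites within 1000 nt, of which there were 34675 on the same strand and 290 on opposite strands. Within 20 nt of a UVC midpoint lay 2268 iCLIP midpoints, or 567.0 for each 10 nt of distance. Between 800 and 1000 nt away there were 115.1 for each 10 nt. The density at the UVC site was thus 4.93 times that of these flanks on the same strand. In 20 nt bins it was highest just upstream of the UVC midpoint, at 15.5 iCLIP sites per 1000 UVC sites.

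**Figure D1:**
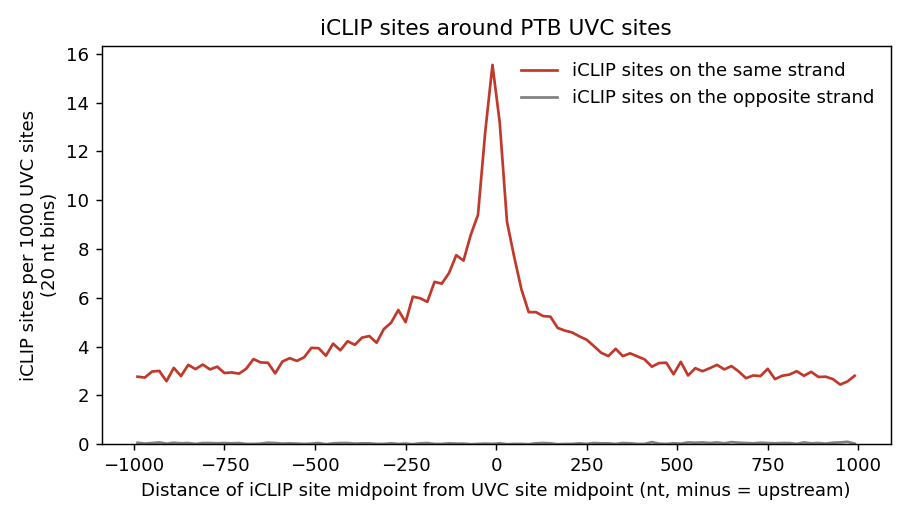
Number of iCLIP sites per 1000 PTB UVC sites (y axis) in 20 nt bins of the distance between their midpoints, read along the strand (x axis, nt; minus is upstream). The same-strand line peaks at 15.5 just upstream of the UVC midpoint and declines on both sides, more slowly upstream, while the opposite-strand line stays near 0.

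The profile leaned to the upstream side. Less than 50 nt from the UVC midpoint, 2665 iCLIP midpoints lay upstream and 2081 downstream, so that 56.2% (interval 54.7 to 57.6) were upstream. The lean was present on the plus strand (55.8%, interval 53.8 to 57.7) and on the minus strand (56.6%, interval 54.5 to 58.6), so it was not tied to one genomic direction. It was also seen from 100 to 200 nt, with 2728 iCLIP sites upstream and 2039 downstream (57.2%, interval 55.8 to 58.6), and from 200 to 500 nt (55.3%). From 500 to 1000 nt it was smaller, at 52.1% (interval 51.2 to 53.0). Among the UVC sites of exactly 50 nt, described next, 52.6% lay upstream within 50 nt, with an interval (49.6 to 55.6) that held equal shares. Among UVC sites wider than 50 nt the share was 58.7% (interval 56.4 to 60.9).

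Where sites did overlap they were seldom alike in extent. The 5125 overlapping pairs shared a median of 32 nt, and the middle 50% of pairs shared between 17 and 48 nt. In 1235 pairs (24.1%) the UVC site lay inside the iCLIP site, in 771 (15.0%) the iCLIP site lay inside the UVC site, and in 3118 (60.8%) they overlapped in part. In 1 pair both ends were identical. Of the partial overlaps, 1881 had the iCLIP site shifted upstream and 1237 downstream. The 5′ end of the iCLIP site lay upstream of that of the UVC site in 60.3% of all pairs, by a median of 9 nt over all pairs, whereas the 3′ ends were nearly level, with a median of 2 nt. Nearly all matches were 1 to 1: 89 UVC sites met more than 1 iCLIP site and 167 iCLIP sites met more than 1 UVC site. Across the 5125 pairs, which are not independent replicates, the scores of both partners were weakly related (Spearman's rho 0.19), and their widths hardly at all (0.073).

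The form of the sites set the UVC list apart from the iCLIP list. Exactly 50 nt was the width of 23049 UVC sites (28.6%), against 632 iCLIP sites (1.21%) and 1.22% of the PTB UVA sites. The same width held 54.7% of the sites found without UV and 0.093% of the YFP sites. UVC widths were narrowly spread, with the middle 50% of sites between 39 and 50 nt and 1.58% above 100 nt. The middle 50% of iCLIP widths ran from 24 to 59 nt, and 7.62% of iCLIP sites were wider than 100 nt. The widest UVC site measured 349 nt and the widest iCLIP site 815 nt.

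The UVC list was also cut into more pieces than the iCLIP list, and unevenly between strands. On the plus strand it held 1.74 peaks per site, on the minus strand 1.18, while iCLIP held 1.122 and 1.097. Both control lists were cut further, with 2.01 and 1.24 without UV and 2.18 and 1.77 for YFP. Touching peaks, where one ends where the next begins, numbered 21550 on the plus strand of the UVC list, and in 18895 of these pairs (87.7%) the peak at the lower coordinate was 11 nt long. On the minus strand there were 4070 touching pairs, of which 2692 (66.1%) began with an 11 nt peak. In the iCLIP list these 11 nt pieces made up 2.76% and 2.23% of touching pairs. The list without UV resembled the UVC list in this, with 90.1% and 80% of its touching pairs, and the YFP list, made with UVC, did not (0.426% and 1.11%). After merging, 51.9% of UVC sites and 51.7% of iCLIP sites lay on the plus strand. For this reason sites, not peaks, are used below. The part of this pattern in the overlap of the lists was not tested beyond the values by width that follow.

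The share found in the other list depended strongly on the width of the site. Of UVC sites of exactly 50 nt, 4.92% overlapped an iCLIP site (1134 of 23049, interval 4.64 to 5.21), and of those from 41 to 49 nt 4.50%. The share was 12.2% (interval 11.5 to 12.9) among the 7806 UVC sites from 51 to 60 nt, against 4.92% one nucleotide below. A wider site has more room to be met, so the share was also counted by the UVC midpoint alone, and it then went from 3.10% to 8.43%. It was 27.4% above 100 and up to 150 nt and 47.8% (65 of 136, interval 39.2 to 56.5) above 150 nt. By the midpoint these were 15.7% and 27.9%. For iCLIP sites the share was 5.63% between 21 and 40 nt, 12.8% between 61 and 80 nt and 37.9% (528 of 1394) above 150 nt. By the iCLIP midpoint these were 3.94%, 7.54% and 13.3%.

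**Figure D2:**
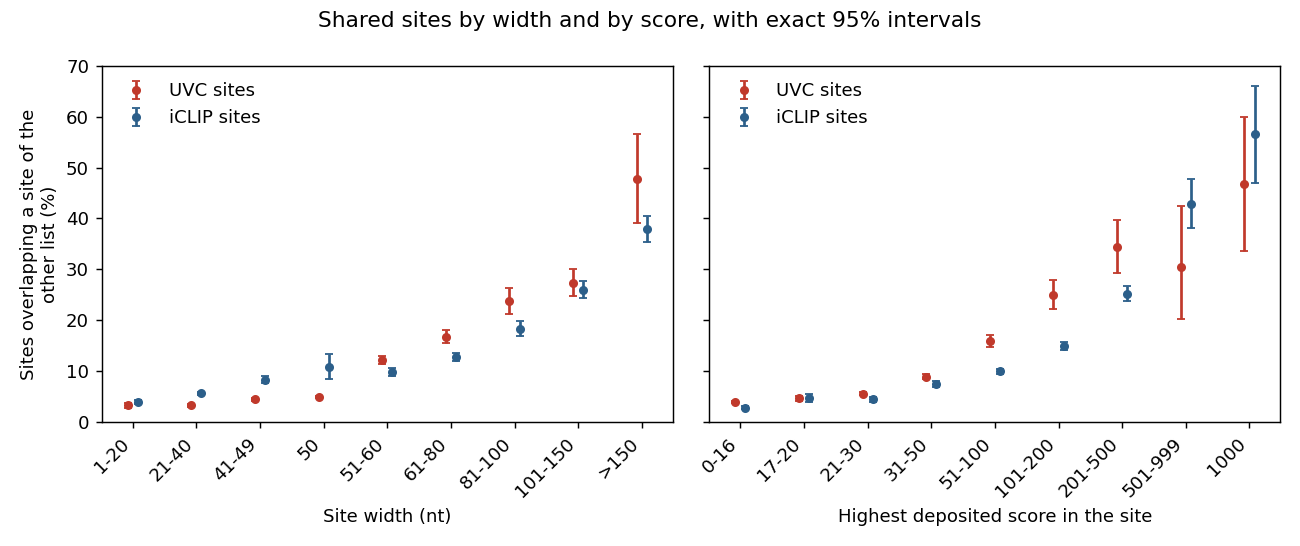
Share of UVC sites overlapping an iCLIP site and of iCLIP sites overlapping a UVC site (y axis, percent, with exact 95% intervals for counting error), by site width in nt (left) and by the highest deposited score in the site (right). UVC sites go from 4.92% at exactly 50 nt to 12.2% at 51 to 60 nt, and iCLIP sites from 2.85% in the lowest to 56.6% in the highest score band.

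Strong iCLIP sites were recovered far more often than weak ones. The deposited score is the authors' own and is higher where the p-value of the peak is lower; it ranks sites within a list. Of iCLIP sites scoring up to 16, 224 of 7864 (2.85%, interval 2.49 to 3.24) overlapped a UVC site. Between 51 and 100 the share was 9.96%, above 200 and up to 500 it was 25.2% (830 of 3295), and above 500 but below the limit it was 42.9% (181 of 422, interval 38.1 to 47.8). At the score limit of 1000, 64 of 113 iCLIP sites (56.6%, interval 47.0 to 65.9) were met. By the iCLIP midpoint alone the shares in the last 3 of these bands were 13.4%, 21.6% and 34.5%, and 2.02% in the lowest. Of the 113 sites at the limit, 16 lay on a peak of the no-UV or YFP list, and without them the share was 50.5% of 97.

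Among UVC sites the share also went up with the score, from 3.94% up to 16 to 15.9% between 51 and 100 and 34.4% (117 of 340) above 200 and up to 500. Above 500 but below the limit of 1000 it was 30.6% (22 of 72) and at the limit 46.7% (28 of 60). Control peaks lay on 26.5%, 55.6% and 86.7% of UVC sites in these 3 bands. By the UVC midpoint alone the shares there were 24.1%, 13.9% and 35%, against 2.60% in the lowest band. Without the sites on control peaks the shares in these 3 bands were 36.0% of 250, 43.8% of 32 and 62.5% of 8. Over the whole list few sites were involved: 631 UVC sites (0.784%) and 244 iCLIP sites (0.465%) lay on a control peak, and without them 6.10% of UVC sites were shared.

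Shared and unshared sites differed in their overlap with the other lists, in width and in score. The PTB UVA list lay on 2875 of the 5035 shared UVC sites (57.1%, interval 55.7 to 58.5) and on 6187 of the 75496 others (8.20%, interval 8.0 to 8.39). On the iCLIP side it lay on 60.04% of shared sites and on 21.7% of unshared ones. Control peaks lay on 2.68% of shared UVC sites (135, interval 2.25 to 3.17) and on 0.657% of the others, and on 2.79% and 0.223% of iCLIP sites. Shared iCLIP sites had a median width of 60 nt and a median score of 90, against 37 nt and 43 for the others. For UVC sites the medians were 50 and 49 nt, with scores of 27 and 20. Width itself bears on whether a site is met, so it is not separate from the matching. Wider sites also have more room to meet UVA sites and control peaks, which was not taken out.

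The lists differed in how sites were spaced along the strand. The median distance to the next site was 4593 nt for UVC (interval 4528 to 4664) and 2617 nt for iCLIP (interval 2516 to 2715), although the UVC list holds more sites. Distances of up to 100 nt were found for 15.2% of iCLIP sites and 4.49% of UVC sites, and of up to 1000 nt for 39.8% and 23.1%. At 10000 nt the lists met, at 65.6% and 66.5%. Beyond 100000 nt lay the next site of 13.9% of iCLIP and 9.17% of UVC sites. Thus iCLIP sites were more often grouped at short range. Between 1000 and 10000 nt fell 43.4% of UVC distances, against 25.7% of iCLIP distances. When sites up to 100 nt apart were merged, which joins the closest neighbours, the order of the medians turned by a small amount, to 5098 nt for UVC and 5195 nt for iCLIP. With as many of the highest-scoring UVC sites as there are iCLIP sites the UVC median was 7706 nt. Of these UVC distances 3.59% were up to 100 nt and 13.7% were beyond 100000 nt. The share beyond 100000 nt was thus close to that of iCLIP in this setting, and the share at short range was not. Leaving out sites can only lengthen the distance from a kept site to the next. This by itself favours more distances beyond 100000 nt and fewer at short range. The sites kept were also chosen by score, so the part of site number in either difference was not tested.

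**Figure D3:**
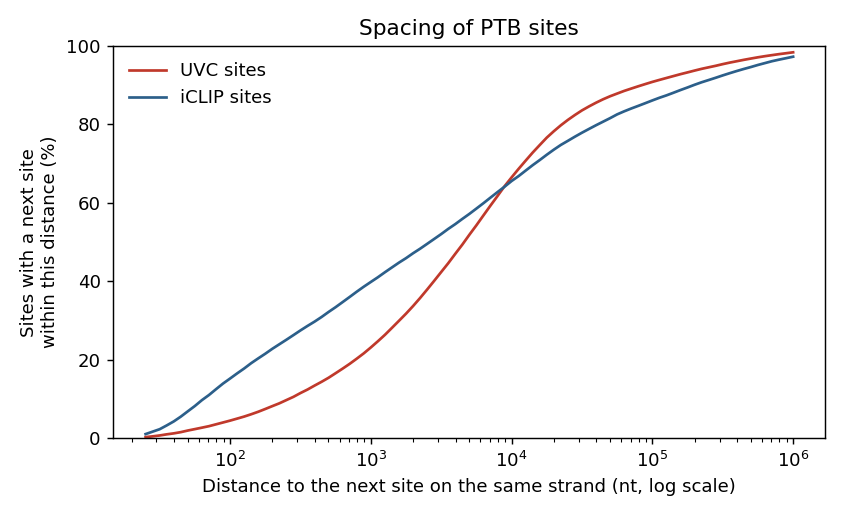
Cumulative share of sites (y axis, percent) whose next site on the same strand lies within the distance on the x axis (nt, log scale). The iCLIP line is above the UVC line at short range, 15.2% against 4.49% at 100 nt, and the lines cross near 10000 nt.

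Each list measured against itself showed the same contrast. Between 100 and 200 nt from a site, the iCLIP list had 283.3 further iCLIP sites per 1000 sites, against 76.7 between 900 and 1000 nt, a ratio of 3.69. For the UVC list the values were 94.2 and 46.7, a ratio of 2.02. When sites no more than 200 nt apart were linked, the iCLIP list formed 293 groups of 5 to 9 sites and 10 larger ones, and the UVC list 39 and 1. Single sites made up 61.7% of the iCLIP list and 84.9% of the UVC list.

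Groups of sites were met more often than single sites. Of 32361 lone iCLIP sites 8.49% (interval 8.18 to 8.79) met a UVC site. Of 2143 iCLIP groups of 3 or 4 sites 28.9% had at least 1 site met, and of the 293 groups of 5 to 9 sites 38.2% (interval 32.6 to 44.1). In the UVC list the same shares were 5.04% for lone sites, 31.9% for groups of 3 or 4 and 53.8% (21 of 39, interval 37.2 to 69.9) for groups of 5 to 9. A group offers more sites and more sequence to meet, which these shares do not take out.

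The largest iCLIP group held 26 sites over 4102 nt at chr11:65198229-65202330 on the plus strand. It had 9 UVC sites, 7 of them on an iCLIP site, 9 UVA sites and 2 control peaks. Another, at chr5:852407-854726 on the minus strand, held 11 iCLIP sites and 7 UVC sites, all 7 on an iCLIP site, with 1 control peak. A group of 11 iCLIP sites at chr2:225396391-225398170 on the minus strand held 2 UVC sites, both shared, and no UVA site or control peak. The largest UVC group, 13 sites over 2397 nt at chrX:73063233-73065629 on the minus strand, held 1 iCLIP site, 10 UVA sites and 8 control peaks. The second, 8 UVC sites at chr19:57818627-57819727 on the plus strand, held 2 iCLIP sites, both shared, with 7 UVA sites and no control peak. The 3 iCLIP groups named here were thus met by UVC sites, but of the 10 groups with at least 10 iCLIP sites 6 were met and the others were not. The largest UVC group held 8 control peaks beside 1 iCLIP site, and the third, 7 sites at chrX:73067324-73068332 on the minus strand, held 4 control peaks and no iCLIP site.

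Chromosomes divided the lists along a graded pattern. For each of 24 chromosomes the share of UVC sites was divided by the share of iCLIP sites. The ratio was at or below 0.8 on 3 chromosomes (12.5%) and at or above the inverse of 0.8 on 2 (8.33%). It was lowest on chromosome 19, the most gene-dense human chromosome, where 3379 UVC sites (4.196%) stood against 3390 iCLIP sites (6.46%), a ratio of 0.649 (interval 0.620 to 0.680). Chromosome 16 followed at 0.668 (interval 0.631 to 0.707). Chromosome Y was the third, but rests on 2 UVC and 12 iCLIP sites. The highest ratios were on the gene-poor chromosomes 13 (1.29, interval 1.19 to 1.39) and 18 (1.27, interval 1.18 to 1.37). Both lie near the limit and passed below it with sites at or above the median score, at 1.198 and 1.110; chromosome 13 also did so with peaks counted (1.230) and chromosome 18 with nucleotides covered (1.234). Chromosomes 6 and 10 came next, both at 1.22 and short of the limit. A relation of the ratios to gene density was not tested. The number of chromosomes past either limit was 5 and ran from 4 to 7 over the settings tried. Of the 23 chromosomes other than Y, 6 had an interval below 1, 11 above 1, and 6 held 1, chromosomes 1 and 12 among them (0.991 and 0.974).

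The UVA list, set against the same iCLIP list, went the other way at both ends. On chromosome 19 the UVA share was 1.35 times the iCLIP share (interval 1.29 to 1.402) and on chromosome 16 it was 1.20 (interval 1.14 to 1.26). On chromosomes 13 and 18 it was 0.767 (interval 0.700 to 0.841) and 0.748 (interval 0.686 to 0.815). The iCLIP list thus stood between the GoldCLIP arms on these 4 chromosomes. Both sets of ratios share the iCLIP list, so they are given side by side only. On chromosome X both arms were above iCLIP, at 1.09 (UVC) and 1.11 (UVA), and on chromosome 14 both were below, at 0.926 and 0.921.

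**Figure D4:**
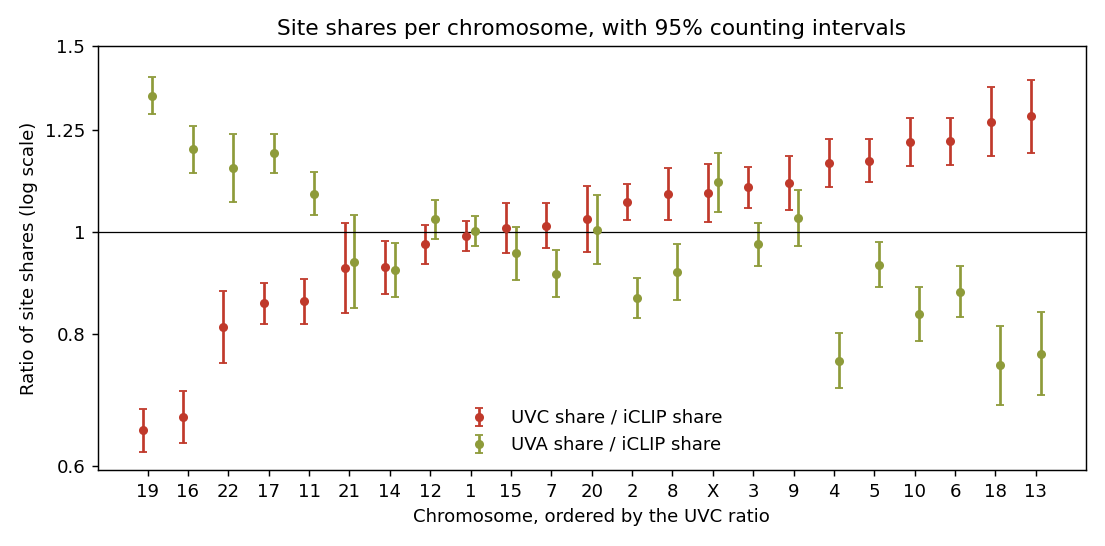
Share of sites on each chromosome divided by the iCLIP share (y axis, log scale) for PTB UVC (red) and PTB UVA (green), with 95% counting intervals; chromosomes on the x axis are ordered by the UVC ratio and Y is left out. UVC runs from 0.649 on chromosome 19 to 1.29 on chromosome 13, and UVA lies on the opposite side of 1 at both ends.

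The shared part of UVC sites was largest on chromosome 19. There 377 of the UVC sites (11.2%, interval 10.1 to 12.3) overlapped an iCLIP site, the highest share of the 23 chromosomes, and chromosome 4 had the lowest, at 3.96% (interval 3.36 to 4.64). From the iCLIP side the shares were closer together, from 7.04% on chromosome 2 to 11.8% on chromosome 10, with 10.8% on chromosome 19. Nearly all matches were 1 to 1, and on chromosome 19 the shared sites were 377 UVC and 365 iCLIP sites. The UVC-side share of a chromosome thus follows closely from its iCLIP-side share and its site numbers. It is not separate from the ratio of site shares above. Sites of exactly 50 nt made up 38.1% of UVC sites on chromosome 16 and 24.2% on chromosome 1. Control peaks lay on 1.42% of UVC sites on chromosome 19 and on 1.86% on chromosome X, the highest share.

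Over windows of 100 kb, taken for each strand, most sites of each list lay in windows that held both lists. Of 16584 windows with any site of either list, 9688 (58.4%) held both, and these contained 81.6% of UVC sites and 93.2% of iCLIP sites. The 4973 windows with UVC sites alone held a median of 2 sites and the 1923 with iCLIP alone a median of 1. Yet 6474 of the 9688 windows with both held no UVC site on an iCLIP site. Across all 16584 windows the site numbers were related with Pearson's r of 0.54 and Spearman's rho of 0.43 with windows empty in both lists left out. The part of transcription in this relation was not tested. The shared part of UVC sites went up with the number of iCLIP sites in the window, from 3.15% (interval 2.88 to 3.44) with 1 or 2 iCLIP sites to 17.3% (243 of 1402, interval 15.4 to 19.4) with more than 20. More iCLIP sites in a window also offer more to meet, which was not taken out.

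**Figure D5:**
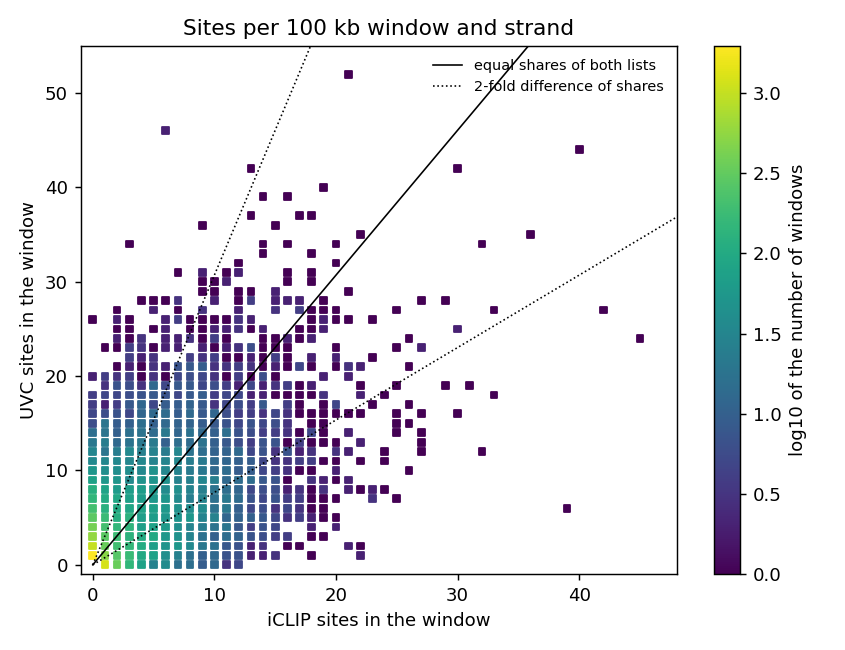
UVC sites (y axis) against iCLIP sites (x axis) in each 100 kb window and strand with a site of either list; colour gives the log10 number of windows, the solid line equal shares of both lists and dotted lines a 2-fold difference of shares. Windows lie on both sides of the equal-share line, with some of up to 26 UVC sites and no iCLIP site.

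In 1510 windows with at least 20 sites of both lists together, the shares could be compared window by window. Site numbers in these windows had a Pearson's r of -0.097 and a Spearman's rho of -0.27. A minimum set on the sum of both lists by itself favours a negative relation. The UVC share was at least 2 times the iCLIP share in 210 windows (13.9%), and the iCLIP share at least 2 times the UVC share in 263 (17.4%). Which excess was more frequent depended on the setting. Without UVC sites of exactly 50 nt, 241 of 1018 windows had the UVC excess, 139 of the 210 among them, and 175 the iCLIP excess, 138 of the 263 among them. In windows of 500 kb the counts were 508 and 397 of 2654 tested (19.1% and 15.0%). With the highest-scoring UVC sites, as many as there are iCLIP sites, 111 of 835 windows had the UVC excess, 64 of the 210 among them, and 183 the iCLIP excess, 147 of the 263 among them. The 210 windows held 20.8 UVC and 4.25 iCLIP sites on average, and the 263 held 9.06 and 17.2, an order that the choice of windows fixes. The UVA list, which took no part in this choice, had 6.16 sites per window in the first set, 12.6 in the 1037 windows between, and 16.96 in the second. Sites of exactly 50 nt were 12.6% of UVC sites in the first set, 23.8% in the windows between and 36.6% in the second. In the first set 41.4% of windows held a control site, near the 39.7% of the windows between, and in the second 31.9%. Chromosomes 19 and 16 gave 7 windows of the first set (3.33%) and 46 of the second (17.5%), and chromosomes 13 and 18 gave 15 (7.14%) and 5 (1.90%). In the 1037 windows between, chromosomes 19 and 16 gave 103 (9.93%) and chromosomes 13 and 18 gave 37 (3.57%). The windows were chosen on the same site shares as the chromosome ratios, so these counts are not independent of those ratios.

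The 8 windows with the highest UVC share for their iCLIP share held at most 1 iCLIP site each. At chr1:197500001-197600000 on the minus strand 26 UVC sites lay between 197504821 and 197589948, a median of 2233 nt apart, with no iCLIP, UVA or control site. At chr4:106300001-106400000 (minus) there were 20 UVC sites and no iCLIP site, with 1 UVA and 1 YFP site. At chr5:135500001-135600000 (plus) there were 20 UVC sites, no iCLIP site, 11 UVA sites and 1 no-UV site, and all UVC sites lay between 135500241 and 135520716. The minus-strand window chr18:45300001-45400000 held 23 UVC sites, 1 no-UV site and 1 iCLIP site, on which 1 UVC site lay. Windows with 20 UVC sites and 1 iCLIP site were chr10:76700001-76800000 (plus, where that iCLIP site was met), chr15:25600001-25700000 (minus), chr20:40100001-40200000 (minus) and a minus-strand window of chromosome 8. Those on chromosomes 15 and 8 held 1 YFP site each, and those on chromosomes 10 and 20 held no control site. In these 8 windows UVC sites were strung out at median distances of 473 to 2482 nt, and UVA had at most 1 site in all but those on chromosomes 5 and 18, which had 11 and 9.

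The 8 windows with the lowest UVC share for their iCLIP share carried from 10 to 33 UVA sites. At chr14:105700001-105800000 (minus) 22 iCLIP sites stood against 1 UVC site, with 13 UVA sites. At chr2:109000001-109100000 (plus) there were 22 iCLIP sites, 1 UVC and 10 UVA sites, the iCLIP sites a median of 296 nt apart. At chr17:18400001-18500000 (minus) there were 22, 2 and 24. The plus-strand windows chr3:49700001-49800000 and chr4:1200001-1300000 held 21 iCLIP and 2 UVC sites each, with 15 and 19 UVA sites. At chr11:6500001-6600000 (plus) 39 iCLIP sites stood against 6 UVC sites and 33 UVA sites. The remaining 2 of these 8 windows, chr1:214700001-214800000 (plus) and chr2:241400001-241500000 (minus), held 19 and 18 iCLIP sites, 3 UVC sites each, and 12 and 18 UVA sites. No YFP site lay in any of the 8 windows, and 2 of them held 1 no-UV site each.

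Shared sites were spread widely. They lay in 3214 windows, and 92 of the 5035 (1.83%) fell in the top 10 windows. The window with the most, chr11:65200001-65300000 on the plus strand, had 15 of its 44 UVC sites on iCLIP sites, but it also held 7 no-UV and 9 YFP sites, and 7 of its UVC sites lay on control peaks. Its strongest shared UVC site, at chr11:65200952-65201058 and at the score limit, lay on no control peak. The iCLIP site it met, with a score of 472, began upstream, at 65200867, and ended at 65201020. In the adjoining window, chr11:65100001-65200000, 13 of 24 UVC sites (54.2%) were shared and no control site was present. There the strongest shared UVC site, at 65195165 to 65195325, lay inside an iCLIP site of 378 nt from 65194968 to 65195345 with a score at the limit.

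The remaining 8 of these windows held between 0 and 3 control sites. At chr1:23600001-23700000 (minus) 10 of 24 UVC sites were shared, with 1 YFP site; the strongest, at 23658573 to 23658661, met an iCLIP site at 23658610 to 23658712. On the minus strand of chromosome X, in the window from 107900001 to 108000000, 9 of 17 UVC sites (52.9%) and 9 of 20 iCLIP sites (45%) were shared, and neither list had more sites outside a stretch from 107963192 to 107979522. Of these UVC sites 2 lay on control peaks, and the window held 2 no-UV sites. In that stretch the median distances were alike, 396 nt for UVC and 385 nt for iCLIP. At chr5:96300001-96400000 (plus) 8 of 27 UVC and 8 of 17 iCLIP sites were shared, with no control site. At chr19:36200001-36300000 (plus) 8 of 21 UVC sites were shared, and the strongest, with a score of 225, met the 3′ end of an iCLIP site of 239 nt with a score of 51. At chr1:16900001-17000000 (minus) 8 of 16 were shared; there a UVC site of 67 nt had its 5′ end on the same base, 16933633, as an iCLIP site of 142 nt. That window held 1 YFP site, and 1 of its UVC sites lay on a control peak. The windows chrX:47000001-47100000 (plus), chr17:46600001-46700000 (minus) and chr16:30700001-30800000 (plus) had 7 shared UVC sites each, of 42, 35 and 27, and the last of them held 2 no-UV sites and 1 YFP site.

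The 8 widest UVC sites that met an iCLIP site and lay on no control peak measured from 212 to 295 nt, and all 8 also met a UVA site. At chr12:6879767-6880053 (plus) a UVC site of 287 nt with a score of 386 contained an iCLIP site of 149 nt. At chr9:116169945-116170171 (minus) the UVC site, scoring 103, met an iCLIP site of 262 nt at the score limit, from 116169971 to 116170232. At chrX:107964682-107964893 (minus) both sites were at the limit and shared 191 nt. The widest, at chr6:27100981-27101275 (plus), shared 30 nt at its 3′ end with an iCLIP site of 58 nt. The site at chr20:5095612-5095871 (minus) contained its iCLIP site of 107 nt, and that at chr12:57031963-57032181 (minus) contained one of 55 nt. At chr12:54679354-54679577 (plus) 80 nt were shared with an iCLIP site that began upstream, and at chrX:73430191-73430407 (minus) 2 iCLIP sites shared 114 nt with the UVC site.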

How the data were processed

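Peaks of PTB GoldCLIP (UVC, UVA and no UV), YFP GoldCLIP and re-derived iCLIP were used as deposited, 1 list per group without replicate names. The submitters' processing notes name Bowtie 1.1.2 and 2 builds, of which hg19 is human and dm3 is fly. For the peak caller, its filters and the pooling, the methods were not given in the sources used here. Both the deposited score (limited to 1000) and the deposited p-value belong to each peak. Peaks listed with a p-value and score of 0 were set to the limit. Peaks within 20 nt on a strand were merged to sites that keep their highest score; a window holds the sites whose midpoints lie in it. Overlap meant at least 1 nt on the same strand. Shares carry exact Clopper-Pearson 95% intervals, medians of distances binomial ones and chromosome ratios normal ones on the log scale. Depth is unknown, and no p-value between lists was computed. Where only 1 list stands for a group, all values are descriptions.

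Windows and sites were named by rule: the 10 windows with most shared sites, the 8 highest and 8 lowest share ratios, and the 8 widest shared sites on no control peak; the linked groups were chosen after their values were seen. The comparison, the rule and all thresholds were chosen with earlier results of these data known. Overlap counts equalled those of bedtools 2.31.1 in 8 of 8 comparisons, and overlap, merging and spacing were tested on simulated data. Software was Python 3.11.15 with matplotlib 3.10.9, scipy 1.17.1, pandas 2.3.3 and numpy 2.4.6.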

Additional observations from a re-analysis of the deposited data

How the results depend on the processing

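UVC peaks on an iCLIP peak (5.45%) came to 3.77% with at least 50% of the peak covered, 7.49% by midpoints within 50 nt, 5.82% at or above the median score and 5.25% without peaks on control peaks. iCLIP peaks on a UVC peak (9.59%) came to 5.48%, 12.4%, 10.8% and 9.24% in the same settings. Ignoring strand, counting each interval once and leaving out chromosome Y kept both within their intervals. UVC sites on an iCLIP site were 5.83% with touching peaks merged only and 6.79% without UVC sites of exactly 50 nt. iCLIP sites on a UVC site were 10.6% with merging within 100 nt, 9.17% without sites on control peaks and 7.34% without UVC sites of exactly 50 nt. The median UVC distance was 3560 nt with touching peaks merged, 5098 nt with merging within 100 nt, 7706 nt for the highest-scoring UVC sites and 5561 nt without those of exactly 50 nt; for iCLIP the first 2 settings gave 2311.5 and 5195 nt. Windows with a UVC excess numbered 1075 of 5148 tested (20.9%) with a minimum of 10 sites and 508 of 2654 (19.1%) at 500 kb. With the highest-scoring UVC sites they numbered 111, where 64 of the 210 were still called among fewer windows tested (835). Windows with an iCLIP excess numbered 1197 (23.3%) and 397 (15.0%) in the first 2 of these settings. Without UVC sites of exactly 50 nt, 175 of 1018 windows had the iCLIP excess and 241 the UVC excess. In the main setting 13.9% of 1510 windows had the UVC excess and 17.4% the iCLIP excess. The iCLIP excess was thus the more frequent at first (263 against 210) but the less frequent at 500 kb and without UVC sites of exactly 50 nt. The order of the median distances turned with merging within 100 nt. Chromosome ratios were followed under 6 alternatives for the 17 chromosomes other than Y whose interval left out 1. This choice by itself favours few turns. Of these 102 ratios 2 turned, both with the highest-scoring UVC sites: chromosome 4 at 0.998 and chromosome 8 at 0.981. Chromosome 19 ranged from 0.615 to 0.715 and chromosome 13 from 1.20 to 1.41. The setting without UVC sites of exactly 50 nt was added after the data had been seen. No paired analysis was possible because each group is 1 list without replicate names, and no replicate could be left out for the same reason. Depth is unknown, so a site missing from a list may have been too thinly sampled.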
